A study of Rattus norvegicus with 70 samples.

Results

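The cell cycle genes are a set of 36 named rat genes whose products copy DNA, drive the passage from one phase of the division cycle to the next, or build and check the mitotic spindle. They were looked up by NCBI gene number in the count tables of adipose tissue, and 35 of the 36 were counted among 15319 genes; Cenpe, a kinetochore motor, had no line in the tables and was not analysed here. By role, the 35 are the proliferation marker Mki67 and the topoisomerase Top2a, which untangles chromosomes; the G1/S cyclins Ccne1 and Ccne2 with the transcription factor E2f1; 6 subunits of the MCM helicase, which unwinds DNA at origins (Mcm2 to Mcm7); and 5 genes of DNA synthesis and nucleotide supply (Pcna, Rrm1, Rrm2, Tk1 and Tyms). The remainder act in mitosis: the G2/M cyclins and kinases Ccna2, Ccnb1, Ccnb2, Cdk1, Plk1, Aurka and Aurkb; the checkpoint and anaphase genes Bub1, Bub1b, Cdc20, Ube2c and Birc5; and the kinetochore, spindle and cytokinesis genes Cenpf, Kif11, Kif20a, Kif23, Nusap1, Prc1 and Tpx2.

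The RNA came from 3 fat depots of 24 Sprague-Dawley rats, females carrying even and males odd numbers: brown fat (BAT), fat under the skin (SAT) and visceral fat (VAT). The rats arrived at 28 days of age and acclimated for 8 days; each was then assigned at random to sham or to PCB 52, a chlorinated biphenyl. PCB 52 was given nose-only in an air flow of 12 L/min for 4 h a day over 28 days, from 42 days of age in females and 39 days in males. Sex, depot and exposure give 12 groups of 6 libraries, each library from 1 rat, except female SAT sham and male VAT PCB 52 with 5, so 70 libraries in all. No transgene, deletion or further agent is named for any group.

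In most tissues of an adult animal few cells divide, and mature adipocytes have left the cycle; dividing cells in fat are mainly progenitors, immune, endothelial and epithelial cells. G1/S genes, the MCM helicase and the nucleotide enzymes are switched on by E2F factors when a cell enters S phase. The mitotic genes come on later, in G2. They are controlled by the DREAM and MuvB complexes, which reach promoters at the cell cycle homology region (CHR), and by NF-Y at CCAAT boxes. Because the tissue was sequenced in bulk, more cells of a kind and more RNA per cell cannot be told apart.

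The promoter stretches of 9 members are printed as examples, 5 mitotic genes and 4 helicase genes in which matches were found; they do not stand for all members. RefSeq (GRCr8) gave a promoter of 250 bases before to 50 after the start for 27 of the 35 genes, and both strands were searched for CHR (TTTGAA or its variant TTCGAA), the CCAAT box (the letters in its name) and an E2F site (TTTGGCGC, TTTGCCGC, TTTCGCGC, TTTCCCGC). Each line holds the 150 bases before the start, 5′ to 3′, with the matches in capitals; adjoining or overlapping matches run together, as in Mcm7, and the capitals that open the Top2a line are the tail of a match that begins before it. The mitotic genes come first.
Top2a: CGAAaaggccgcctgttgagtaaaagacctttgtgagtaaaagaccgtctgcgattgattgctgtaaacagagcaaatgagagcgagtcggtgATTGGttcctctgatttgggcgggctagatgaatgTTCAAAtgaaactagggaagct
Cdk1: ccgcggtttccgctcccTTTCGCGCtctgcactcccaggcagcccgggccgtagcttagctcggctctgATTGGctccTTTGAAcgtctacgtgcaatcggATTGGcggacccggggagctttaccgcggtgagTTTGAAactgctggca
Ccnb2: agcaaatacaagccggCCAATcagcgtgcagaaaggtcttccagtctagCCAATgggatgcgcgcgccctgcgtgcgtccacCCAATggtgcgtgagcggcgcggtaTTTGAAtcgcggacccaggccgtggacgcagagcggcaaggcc
Cdc20: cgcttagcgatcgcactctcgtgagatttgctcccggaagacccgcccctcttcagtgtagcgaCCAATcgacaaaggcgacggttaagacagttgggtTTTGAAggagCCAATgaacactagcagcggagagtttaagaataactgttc
Prc1: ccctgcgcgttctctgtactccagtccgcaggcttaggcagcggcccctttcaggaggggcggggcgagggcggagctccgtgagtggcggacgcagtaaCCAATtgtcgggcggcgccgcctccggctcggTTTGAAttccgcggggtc
The helicase genes follow.
Mcm2: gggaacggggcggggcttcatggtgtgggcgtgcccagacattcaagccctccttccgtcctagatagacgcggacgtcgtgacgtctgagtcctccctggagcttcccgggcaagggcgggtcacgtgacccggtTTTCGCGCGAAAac
Mcm5: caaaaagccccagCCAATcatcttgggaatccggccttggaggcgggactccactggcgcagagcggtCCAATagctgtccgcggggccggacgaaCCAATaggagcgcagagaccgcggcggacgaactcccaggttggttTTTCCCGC
Mcm6: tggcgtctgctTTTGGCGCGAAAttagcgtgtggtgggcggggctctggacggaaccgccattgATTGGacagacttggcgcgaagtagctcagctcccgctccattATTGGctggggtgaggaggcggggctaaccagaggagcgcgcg
Mcm7: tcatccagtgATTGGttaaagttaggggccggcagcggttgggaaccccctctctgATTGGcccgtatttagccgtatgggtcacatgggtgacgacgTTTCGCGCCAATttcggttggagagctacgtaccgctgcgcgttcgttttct

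A CHR was present in 15 of the 27 promoters (55.6%), against 19.7% of 33469 promoters of all genes, and a CCAAT box in 20 (74.1%), against 37.5%. An E2F site was present in 7 (25.9%), against 2.14%. CHR and CCAAT box stood together in 11 of 17 promoters of Mki67, Top2a and the mitotic genes (64.7%), against 7.95% of all promoters. Among these 17, only Cdk1 had an E2F site; its match began 133 bases upstream of the start, and its CHRs began 72 and 16 bases upstream. All 5 MCM promoters in the table had an E2F site, and 1 of the 5 had CHR and CCAAT box together. Over the 10 promoters of G1/S, helicase and DNA synthesis genes, 6 had an E2F site; outside the helicase Tyms had one, and Ccne1, Pcna, Rrm1 and Tk1 had none. CCAAT boxes did not set the helicase apart, with 4 of 5 MCM promoters (80%) against 82.4% of the 17. Aurka, Bub1, Ccne1 and Tk1 had no match to any of these letters. In Cdc20, the activator of the anaphase-promoting complex, the CHR began 51 bases upstream, between CCAAT boxes at 86 and 41. A match describes these letters in this window and says nothing of a bound factor.

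Library totals ran from 4604116 to 9707132 counts, so that 3 counts, taken as the floor of detection, equal 0.309 to 0.652 CPM (counts scaled to a fixed library total). Of the 35 genes, 21 reached 3 counts in all 70 libraries and 14 did not; the fewest were 54 libraries for Ccnb2, 61 for Birc5 and 65 for Cenpf and Ube2c. Brown adipocyte genes summed to 5088 to 13280 CPM in 11 female BAT libraries and 196 in the library of rat 24, and to 11.8 to 33.2 in female SAT. Levels of Ccnb2, Birc5 and Ube2c lay near the floor in most libraries. Some libraries stood apart in ways their group labels do not give. The female SAT sham library of rat 8 listed 1018 of 11356 genes (8.96%) at 0 although every other library of its group had at least 1 CPM. In the male VAT PCB 52 library of rat 13 that was 592 of 10954 genes (5.40%), among them 317 of 324 such genes (97.8%) on chromosome X and 270 of 410 (65.9%) on chromosome 9.

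The summed level of the 35 genes was similar across most libraries and far higher in a few. In male BAT sham rats it was 195, 205 and 239 CPM (lowest, median, highest), in male SAT sham 266, 348 and 529.9, and in male VAT sham 269, 335 and 497. In females it was 172, 219 and 265 in BAT sham, 309.9, 359 and 3379 in SAT sham, and 219, 297 and 372 in VAT sham. SAT held the highest libraries of each sex. The PCB 52 groups had medians of 215 (female BAT), 509 (female SAT), 292 (female VAT), 233 (male BAT), 359 (male SAT) and 322 CPM (male VAT). The highest PCB 52 libraries were rats 22 and 14 in female SAT (2474 and 1465) and rat 19 in male SAT (1339). In the other PCB 52 groups the highest library was at 407 in female BAT (rat 24), 459.7 in female VAT, 262 in male BAT and 473.6 in male VAT. High libraries thus occurred in both exposure groups of female SAT.

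**Figure D1:**
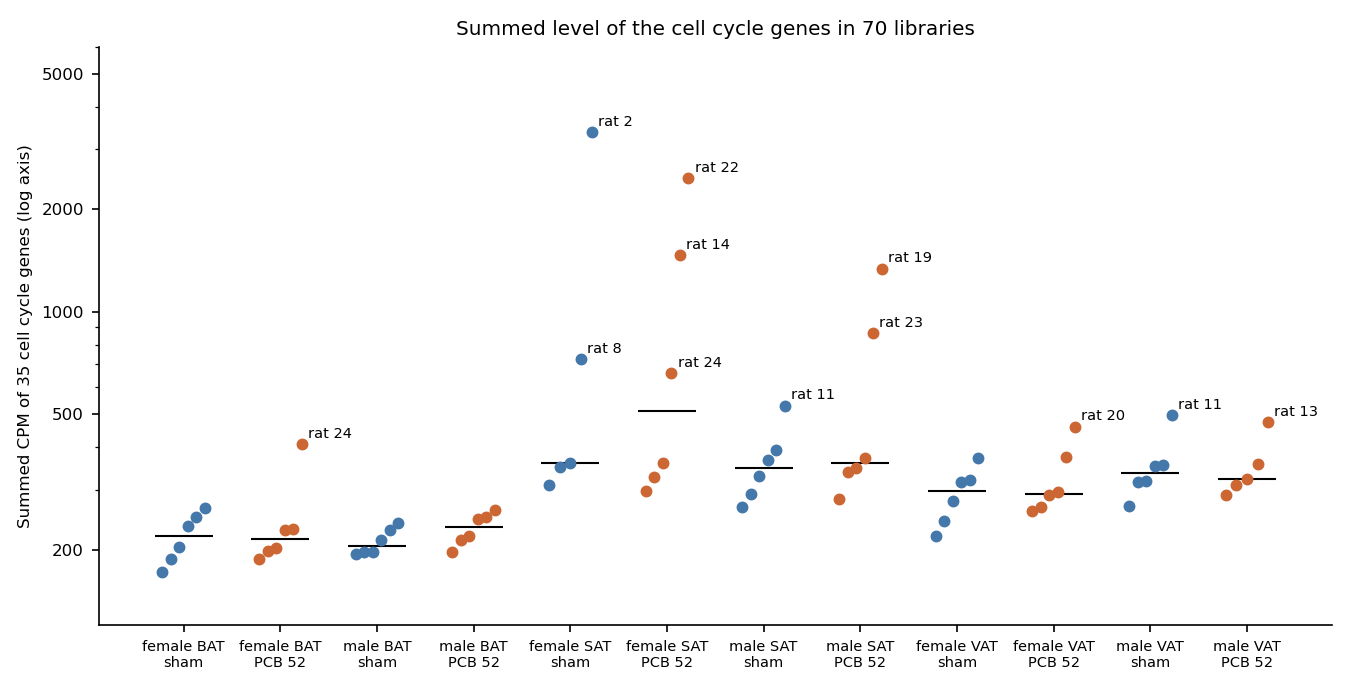
Summed level of the 35 cell cycle genes (CPM, log axis) in each library, by sex, depot and exposure; each point is 1 rat. Most libraries lie between 172 and 529.9 CPM, and the highest are female SAT rats 2 (3379), 22 (2474) and 14 (1465) and male SAT rat 19 (1339).

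Depots were compared first in sham males, where no library was as far from its group as in female SAT. BAT had lower levels than SAT of the helicase, the mitotic kinases and the spindle genes. Of 34 genes tested, 21 were lower in BAT and 1 was higher at an adjusted p under 0.05 (edgeR's quasi-likelihood test, Benjamini-Hochberg); over all genes, 27.3% were lower and 28% higher. The median log2 fold change of the tested cell cycle genes was -0.92, against -0.04 over all genes. All 6 MCM genes, 5 of 6 G2/M cyclins and kinases, 5 of 7 spindle genes and both Mki67 and Top2a were among the lower ones, but only 1 of 5 checkpoint genes (Bub1) and none of the 5 genes of DNA synthesis. Markers of other cells moved with the depot: the 7 mammary and surface epithelium genes summed to 0.79 to 2.86 CPM in male BAT sham and to 10.4 to 212100 (median 71660) in male SAT sham, and the 6 skeletal muscle genes had medians of 17950 and 1015. Their part in the result was not tested.

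Mcm4, an MCM subunit, ranged from 5.18 to 10.5 CPM (median 7.25) in male BAT and from 14.6 to 23.6 (median 20.2) in male SAT. The ranges do not overlap, and the log2 fold change was -1.09 ± 0.16 (SE; edgeR adjusted p = 2.5e-05). Kif20a, a kinesin of cytokinesis, ranged from 3.56 to 8.15 CPM in BAT and from 14.3 to 18.9 in SAT, with a log2 fold change of -1.19 ± 0.19. Cenpf, a kinetochore protein, had a median of 0.70 CPM in BAT, at about the floor, and 3.25 in SAT (-2.09 ± 0.33). Mki67 ranged from 6.27 to 9.26 CPM in BAT and from 10.8 to 41.96 in SAT, again without overlap (-1.48 ± 0.28). The fold changes of the next genes by p were -0.81 ± 0.15 for Mcm7, -1.65 ± 0.32 for Top2a, -1.84 ± 0.36 for Aurka and -1.18 ± 0.25 for Mcm6. For 12 genes every BAT library lay below every SAT library, and how many of all genes do so was not counted.

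Rrm1, the large subunit of ribonucleotide reductase, went the other way. It ranged from 47.3 to 65.9 CPM in male BAT, from 29.96 to 53.1 in SAT and from 27.4 to 47.5 in VAT. The BAT and SAT ranges overlap slightly. Its log2 fold change in BAT was 0.76 ± 0.14 against SAT and 1.02 ± 0.15 against VAT (edgeR adjusted p = 0.00030 and 1.6e-05). Rrm2, the small subunit, which is made in S phase, had medians of 2.33, 4.36 and 3.60 CPM in the same depots and did not pass the test against SAT (-0.99 ± 0.43). Rrm1 pairs with a second small subunit outside S phase in quiescent cells.

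Against male VAT, 13 of 34 genes were lower in BAT and Rrm1 was higher, against 23.3% and 26.5% of all genes; the median was -0.56, against -0.03. The helicase led again, with 5 of 6 MCM genes lower (Mcm4 -0.83 ± 0.16, Mcm7 -0.68 ± 0.15, Mcm6 -1.07 ± 0.25, Mcm2 -0.86 ± 0.21), while Mki67 (-0.43 ± 0.28) and Top2a (-0.51 ± 0.32) did not pass. E2f1, which drives entry to S phase, ranged from 1.38 to 8.64 CPM in male BAT and from 15.2 to 29.4 in male VAT. It fell by 1.72 ± 0.32 on the log2 scale in BAT, and the groups do not overlap. Kif20a fell by 0.93 ± 0.18 and the G1/S cyclin Ccne1 by 1.15 ± 0.35. Kif11, the motor that separates spindle poles, was lower by -2.83 ± 0.85, but VAT rat 11 held 77.6 CPM while the other VAT libraries held 2.26 to 4.10, and without that library the value was -0.71.

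SAT and VAT of sham males differed in fewer of these genes. SAT was higher in 5 of 34 and lower in 0, against 12.4% and 10.6% of all genes, with a median of 0.26 against -0.01. E2f1 was called lower with the rat as a block, and also by DESeq2. The 5 were Cenpf (1.22 ± 0.30, edgeR adjusted p = 0.0086), Ccne2 (0.67 ± 0.17), Mki67 (1.05 ± 0.28), Aurka (1.31 ± 0.35) and Top2a (1.13 ± 0.31). Mki67 was 10.8 to 41.96 CPM in SAT and 7.13 to 19.5 in VAT, and Aurka 3.69 to 18.5 and 3.63 to 5.56. The ranges overlap for both. The share called lower was below that of all genes, and the share called higher was close to it.

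**Figure D2:**
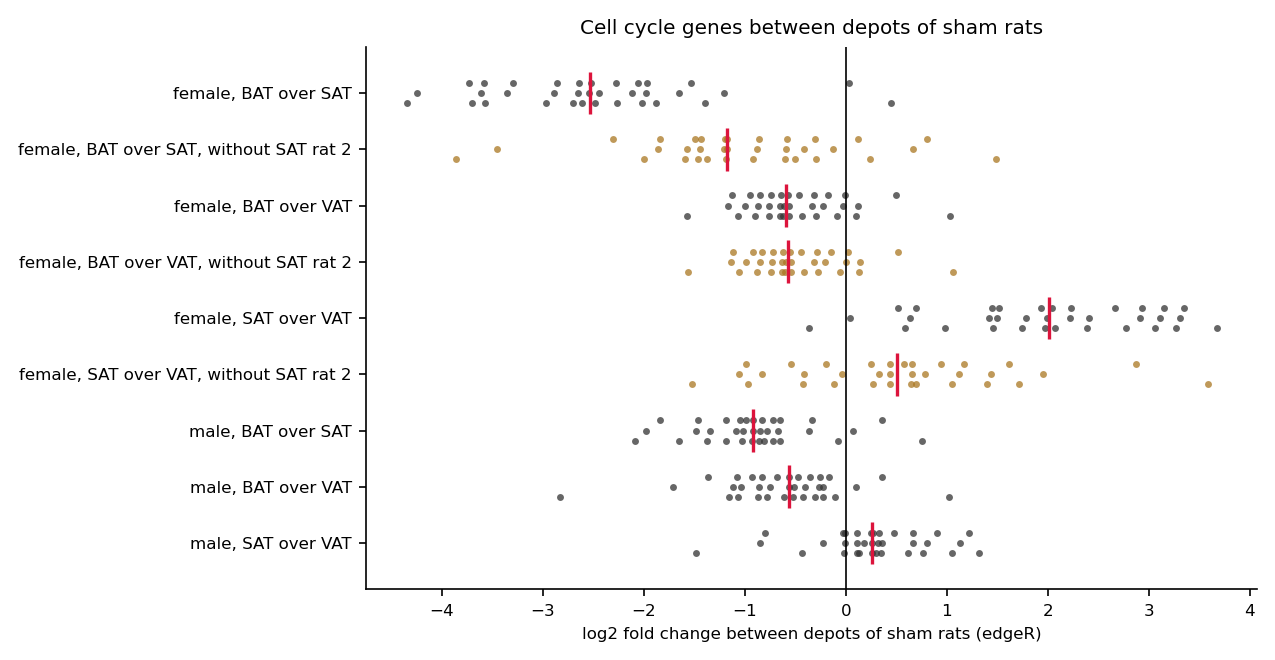
Log2 fold change between depots in sham rats for each tested cell cycle gene, with a line at the median of each contrast. Female contrasts are also drawn without SAT rat 2. Standard errors and adjusted p are not drawn. At an adjusted p under 0.05 (edgeR), male BAT was below male SAT in 21 genes and above it for Rrm1. The female contrasts with SAT reach further, as far as -4.35 for Cdk1 with all libraries.

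In sham females the contrasts with SAT were larger and rested largely on rats 2 and 8. With all libraries, 30 of 34 genes were lower in BAT than in SAT and 0 higher, against 27.3% and 20.3% of all genes, with a median of -2.54 against -0.14. The 4 that did not pass were Tk1, Ccne1, Rrm1 and Tyms. By smallest p the lower genes were Mcm7 (-2.55 ± 0.33, edgeR adjusted p = 8.9e-06), Kif20a (-1.88 ± 0.25), Mcm4 (-2.06 ± 0.42), Ccne2 (-1.53 ± 0.33), Mcm6 (-2.89 ± 0.62), Cdk1 (-4.35 ± 0.94), Mcm2 (-2.27 ± 0.50) and Aurka (-2.12 ± 0.47). Without SAT rat 2, 12 genes were lower, all 12 among the 30, and Rrm1 (1.49) and Tyms (0.67) were higher; the median was -1.17. With the rat as a block, which compares depots within the animal, 12 were lower and the median was -1.62. Shares over all genes, here and below, are those of the fits with all libraries and no block.

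Without SAT rats 2 and 8 together, 6 genes were lower in female BAT (Aurka, Ccne2, Kif20a, Mcm2, Mcm4 and Mcm7), 5 were higher (Ccne1, Rrm1, Tk1, Tyms and Ube2c), and the median was 0.02. Those 6 passed with and without the 2 libraries. The share of all genes called without them is not given, so these counts cannot be set against it. Kif20a was at 4.44 to 11.3 CPM in female BAT and at 18.5 to 57.7 in female SAT, and its log2 fold change without both libraries was -1.48 ± 0.19. Mcm7 was at 8.86 to 22.5 CPM in BAT and at 58.7 to 177 in SAT, and its value without both was -1.77 ± 0.22. Neither gene's ranges overlap. Cdk1, Mki67 and Top2a passed with all libraries and did not pass without both.

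Female SAT was higher than VAT in 25 of 34 genes and lower in 0, against 23.2% and 16.5% of all genes, with a median of 2.02 against 0.10. The genes of smallest p were Mcm7 (1.94 ± 0.32, edgeR adjusted p = 0.00017), Ccne2 (1.45 ± 0.32), Kif20a (0.99 ± 0.24), the replication clamp Pcna (1.97 ± 0.48), Cdk1 (3.35 ± 0.87), Nusap1 (3.27 ± 0.90), the survivin gene Birc5 (3.67 ± 1.01) and Mki67 (2.92 ± 0.81). Without rat 2, 6 were higher and Prc1 (-1.52) and Tyms (-0.98) were lower, with a median of 0.51. With the rat as a block 5 were higher (Aurka, Ccne2, Kif20a, Mcm7 and Pcna). Without rats 2 and 8, only Ccne2, Kif20a and Mcm7 were higher, while Ccne1 (-2.67 ± 0.37), Prc1, Tk1 and Tyms (-1.12 ± 0.16) were lower, and the median was -0.54. The direction for most of the list therefore turned with those libraries.

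Female BAT and VAT differed in Kif20a alone, at 6.70 and 15.1 CPM by median (-0.90 ± 0.24, edgeR adjusted p = 0.0097). That is 1 lower and 0 higher of 34, against 11.2% and 14.3% of all genes. At an unadjusted p under 0.05 there were 4 genes, and the share of all genes at that cut is not given here. The median was -0.59, against -0.07 over all genes. Rrm1 had the same sign as in males, at 52.2 to 68.2 CPM in BAT and 26.1 to 42.3 in VAT, and did not pass (1.04 ± 0.41, edgeR adjusted p = 0.075). Its groups do not overlap. The fit also held the female SAT libraries, whose spread enters the error. Over all genes the median standard error was 0.30, against 0.21 in males. Without SAT rat 2, 1 gene was higher and 2 were lower in BAT than in VAT.

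Female SAT held the widest spread of any group. Mki67 was 384 CPM in sham rat 2, 14.9 in rat 6, 41.7 in rat 8, 5.37 in rat 10 and 7.59 in rat 12; under PCB 52 it was 124 in rat 14, 11.9 in rat 16, 8.49 in rat 18, 15.04 in rat 20, 275 in rat 22 and 50.9 in rat 24. Top2a was 253, 6.06, 10.1, 1.31 and 2.01 CPM in the sham rats in the same order and 76.3, 4.54, 2.09, 3.50, 171 and 34.7 under PCB 52. Rats 2, 14, 22 and 24 were high in both genes, 1 from the sham group and 3 from the PCB 52 group. The sham values therefore enclose every PCB 52 value for both genes.

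The same rats were high for genes of S phase and of mitosis. Cdk1, the mitotic kinase, was 73.2 CPM in sham rat 2, 5.49 in rat 6, 49.1 in rat 8, 2.39 in rat 10 and 1.72 in rat 12, and 19.3, 1.87, 1.44, 1.56, 57.2 and 15.6 in rats 14 to 24. Its cyclin Ccnb1 was 59.7, 2.54, 2.71, 1.55 and 0.72 in sham and 16.2, 2.27, 0.91, 1.30, 51.8 and 17.6 under PCB 52. Rat 8 was thus high for Cdk1 and not for Ccnb1. Mcm5 was 95.4, 3.52, 2.03, 4.89 and 2.72 CPM in sham and 46.4, 3.07, 2.74, 2.08, 66.3 and 7.68 under PCB 52. Rrm2 was 108, 1.69, 15.4, 1.91 and 1.00 in sham and 24.6, 1.87, 1.31, 1.95, 74.3 and 11.8 under PCB 52. Pcna was 319, 45.1, 208, 54.5 and 50.1 in sham and 176, 48.2, 44.7, 43.7, 191 and 50.7 under PCB 52. Pcna, which also serves DNA repair, was thus high in rats 2, 8, 14 and 22.

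By the medians of the roles, rat 2 stood further from its group in mitotic genes than in S-phase genes, with exceptions. The level of each gene in a library was divided by its median over the other libraries of the group; over the 35 genes the median of this ratio in rat 2 was 18.6, from 2.37 for Kif20a to 62.8 for Top2a, with 34 genes above every other sham library. By role the medians were 48.4 for Mki67 and Top2a, 42.3 for spindle genes, 29.2 for G2/M cyclins and kinases and 14.4 for checkpoint genes, against 9.27 for the MCM helicase, 6.22 for G1/S genes and 6.09 for DNA synthesis. In rat 22 the median ratio was 14.2 over the 35, 27.9 for Mki67 and Top2a and 20.9 to 21.5 for the mitotic roles, against 5.63 for the helicase, 5.09 for G1/S genes and 3.97 for DNA synthesis. Mcm7, at 2.1, had its lowest ratio and Rrm2, at 38.2, its highest. Rats 14 and 24 had medians of 5.43 and 3.99. Of the 11 female SAT libraries, rat 2 was the highest for 32 of the 35 genes. Its ratio was also high for the S-phase genes Rrm2 (59.8) and Mcm5 (30.6), and lowest for the spindle gene Kif20a. The median levels of these 3 genes over all libraries were 2.46, 3.91 and 14.7 CPM. How far a gene's usual level sets its ratio was not tested.

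Rat 8 had a different pattern, uneven from gene to gene. Birc5 was 33.7 CPM, above the 20.4 of rat 2, and Cdk1 and Pcna were next to rat 2, whereas Prc1 was 0.68, Rrm1 8.39 and Ccnb1 2.71. The ratio ran from 0.243 for Rrm1 to 21.5 for Birc5, and 8 genes lay below every other sham library. The B-type cyclins Ccnb1 and Ccnb2 were at 2.71 and 11.1 CPM, against 0.72 to 2.54 and 0.29 to 0.72 in sham rats 6, 10 and 12. This is the library with 1018 genes at 0, and its adipocyte genes summed to 13050 CPM, against 2598 to 6156 in the other female SAT libraries.

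**Figure D3:**
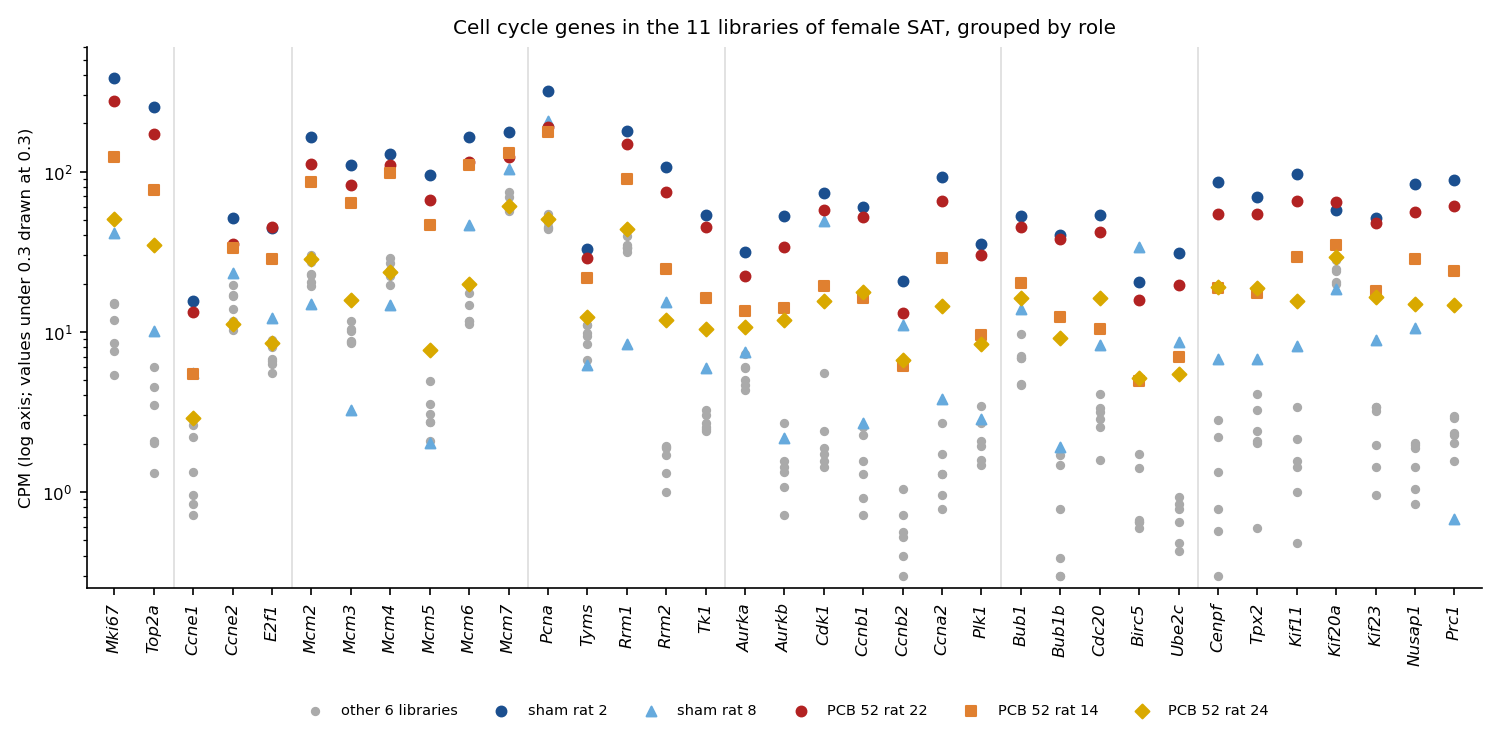
Level of each cell cycle gene (CPM, log axis) in the 11 female SAT libraries, by role. Sham rats 2 and 8 and PCB 52 rats 14, 22 and 24 are marked, and the other libraries of both groups are grey. Sham rat 2 and PCB 52 rats 22 and 14 lie above the rest for most genes, while sham rat 8 is high for Birc5, Cdk1 and Pcna and low for Rrm1 and Prc1.

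Epithelial markers varied in female SAT too. The summed level of 7 mammary and surface epithelium genes was 19420 CPM in female SAT rat 2, 27080 in rat 22, 34840 in rat 14 and 8394 in rat 24, but also 22680 in rat 6 and 20020 in rat 10, whose cell cycle genes were low; it was 3563 in rat 8, 3874 in rat 12 and 2714 to 2995 in rats 16, 18 and 20. In rat 2 the sum came mostly from the milk protein genes Csn1s1 and Csn2. As a sum, the list did not separate the libraries with high cell cycle genes from the rest. Its single genes differed: in rat 2, Krt8, Krt14 and Krt5 were 403, 107 and 228 CPM, against 198 to 326, 46.2 to 96.8 and 59.7 to 137 in rats 6, 10, 12, 16, 18 and 20, while Epcam (272), Csn1s1 (13120), Csn2 (5274) and Wap (12.9) lay within the range of those rats. In rat 22, Krt8 (423) and Krt5 (182) were above that range and Krt14 (81.2) and Epcam (262) within it. The single genes of rats 14 and 24 are not given here. The part of these cells in the result was not tested.

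PCB 52 was compared with sham in each sex and depot. No cell cycle gene passed in any of the 6 comparisons, and no gene of the genome did either (0% called in each; edgeR). At an unadjusted p under 0.05 there were 2 cell cycle genes of 23 tested in female BAT, 0 of 35 in female SAT and 4 of 32 in female VAT. In males there were 1 of 21 in BAT, 2 of 35 in SAT and 1 of 34 in VAT. DESeq2 called 0 cell cycle genes in each comparison. The share of all genes at the unadjusted cut is not given here, so those counts are not read as a result. The median log2 fold changes, in the same order, were 0.25, -0.26, 0.29, 0.12, 0.49 and -0.06, against medians over all genes of -0.01, 0.01, 0.01, 0.02, 0.03 and -0.03.

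In female SAT the smallest p belonged to Birc5 (-2.02 ± 1.22, edgeR adjusted p = 0.77), Mcm7 (-0.57 ± 0.39) and Pcna (-0.99 ± 0.70). The standard errors were wide for every one of them. With all libraries 6 of 35 values were positive; without sham rat 2, 29 were positive and the median was 1.09; without PCB 52 rat 22, 0 of 33 were positive and the median was -0.98; without sham rats 2 and 8, all 35 were positive and the median was 2.27. No cell cycle gene passed in any of these fits. The sign of the PCB 52 difference in female SAT thus changed with which high library was left out.

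In male SAT, 33 of 35 values were positive, led by the mitotic kinase Aurka (3.11 ± 1.24), Rrm2 (2.69 ± 1.08) and Plk1 (0.89 ± 0.49), each with an edgeR adjusted p of 1. Aurka was 474 CPM in PCB 52 rat 19 and 6.999, 5.44, 16.3, 4.61 and 15.2 in rats 13, 15, 17, 21 and 23, against 3.69 to 18.5 in sham. Rrm2 was 174 CPM in PCB 52 rat 19, 16.8 in rat 23 and 3.13 to 4.23 in the other PCB 52 rats, against 2.74 to 9.44 in sham. Only rat 19 lay outside the sham range for Aurka. Without rat 19 the values were -0.09 for Aurka, 0.14 for Rrm2 and 0.56 for Plk1; 27 values were positive and the median was 0.17. Without sham rat 11 and PCB 52 rats 19 and 23, 18 of 33 values were positive, the median was 0.03, Aurka was -0.05 and Rrm2 -0.25.

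In female BAT the genes of smallest p were Aurka (0.76 ± 0.26), Tyms (0.25 ± 0.10) and Ccne2 (0.29 ± 0.15), none with an edgeR adjusted p below 0.99. Aurka was 2.64 to 5.19 CPM under PCB 52 and 0.93 to 2.89 in sham, with a slight overlap. In all, 21 of 23 values were positive; without PCB 52 rat 24, 7 of 23 were and the median was -0.10. The lean to higher values rested on that library.

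In female VAT the leading genes were E2f1 (0.59 ± 0.23, edgeR adjusted p = 0.50), the thymidylate synthase Tyms (0.32 ± 0.14) and the thymidine kinase Tk1 (0.85 ± 0.37). E2f1 was 10.7 to 22.4 CPM under PCB 52 and 6.80 to 16.8 in sham. The groups overlap. Without PCB 52 rat 20 the median was 0.05, with 21 of the tested values positive against 27 with it. In male VAT they were E2f1 (-0.47 ± 0.19, edgeR adjusted p = 0.75), Kif20a (0.21 ± 0.13) and Ccne1 (-0.23 ± 0.17), and E2f1 was 13.9 to 26.1 CPM under PCB 52 and 15.2 to 29.4 in sham. In male BAT they were Tyms (0.29 ± 0.10, edgeR adjusted p = 0.44), Mki67 (0.41 ± 0.20) and Mcm4 (0.38 ± 0.20). Tyms was 10.8 to 14.3 CPM in male BAT sham and 14.98 to 16.6 under PCB 52, the only cell cycle gene of that comparison whose groups do not overlap. How many of all genes separate in this way was not counted.

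**Figure D4:**
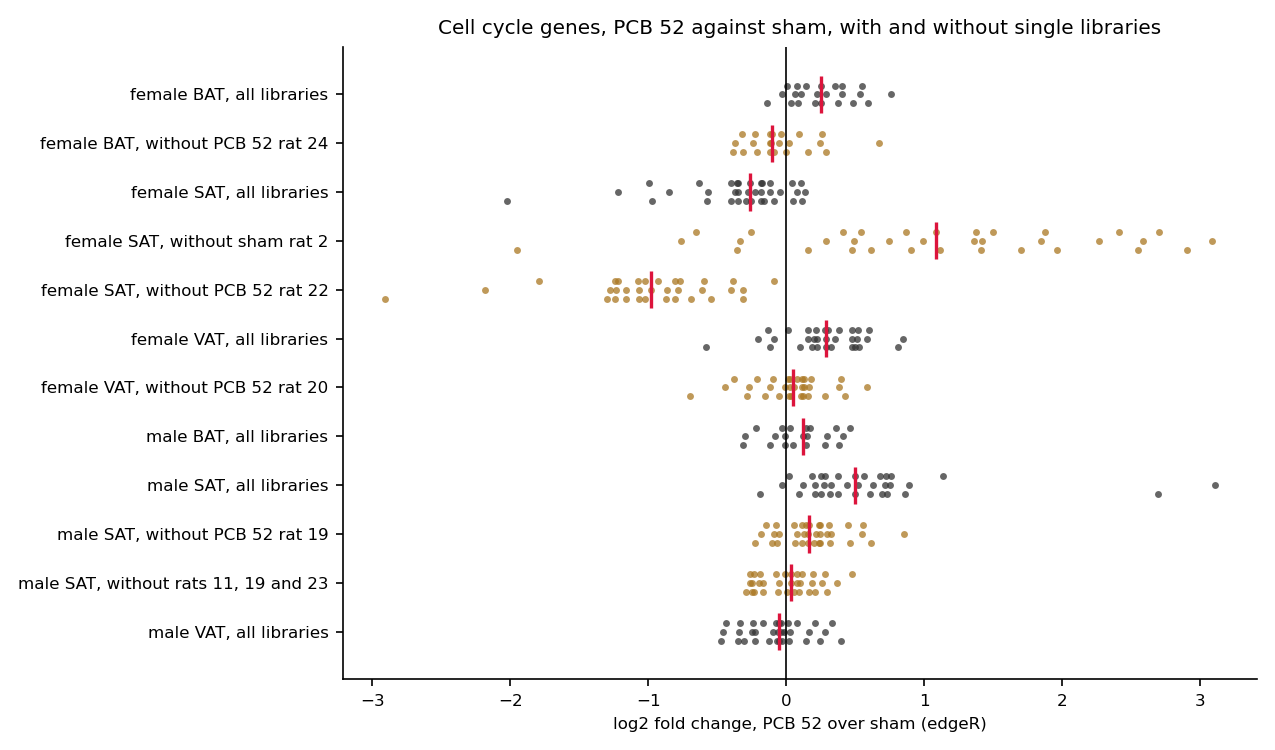
Log2 fold change of PCB 52 over sham for each tested cell cycle gene in the 6 comparisons, with a line at the median. Further rows leave out single libraries, or male SAT rats 11, 19 and 23 together. Standard errors are not drawn, and no gene passed an adjusted p of 0.05 (edgeR). With all libraries, values cluster near 0 in BAT and VAT, and male SAT reaches 3.11 for Aurka and 2.69 for Rrm2.

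Libraries that stood apart did so with different genes. In female BAT rat 24 the median ratio to the other PCB 52 libraries was 2.95, from 0.98 for Rrm1 to 10.01 for Cenpf, and 32 of the 35 genes were the highest of all female BAT libraries. Mki67 was 32.1 CPM there and 4.48 to 7.86 in the other PCB 52 libraries, and Top2a was 14.6 and 1.62 to 4.01. By role the median ratio was 4.70 for Mki67 and Top2a, 3.09 for spindle genes and 2.97 for the helicase, and lowest for DNA synthesis (1.29). The same library differed in its cell type markers: brown adipocyte genes were at 196 CPM, as given above, skeletal muscle genes to 40860 against 287 to 20540, progenitor genes to 1198 against 281 to 856 and macrophage genes to 1325 against 240 to 1046. Whether the cell cycle genes differ because of that makeup was not tested.

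In male SAT rat 19 the median ratio was 2.69 and 21 genes were above the rest of the group, but the spread ran from 0.924 for E2f1 to 67.7 for Aurka. The median ratio was 3.52 for G2/M genes and 3.56 for spindle genes, against 1.40 for the helicase and 1.04 for G1/S genes. Plk1 was 11.01 CPM in rat 19 and 9.62 in rat 23, and Mki67 76.1 and 54.1. Fam210b, which overlaps Aurka in the RefSeq annotation, was 29.2 CPM, against 12.8 to 28.2 in the 9 male SAT libraries other than those of rats 11, 19 and 23, and Cstf1 beside it was 44.9 against 27.1 to 34.1 in the same 9. Next to Rrm2, again against those 9, Mboat2 was 272 CPM against 0.41 to 26.3, while Cys1, which overlaps Rrm2, was 3.57 against 4.89 to 11.97. The library also held 51830 CPM of 3 sebaceous and preputial gland genes, against 0.41 to 76.7 elsewhere in male SAT, of which Mup4 gave 51790, and their part in the result was not tested.

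Male SAT rats 11 (sham) and 23 (PCB 52) had median ratios of 1.80 and 2.53, and in both the largest ratio was that of Mcm3 (6.19 and 10.1). Mcm3 was 52.3 and 118.5 CPM in them and 5.44 to 16.1 in the other male SAT libraries. By role the helicase had a median ratio of 1.81 and 2.69, and all 6 subunits were above the rest of the group in both. In these libraries B and plasma cell genes summed to 282 and 618 CPM, against 0.15 to 4.22, and T and NK cell genes to 223 and 693, against 4.61 to 10.3. Female VAT sham rats 8 and 10 held 125 and 223 CPM of the B and plasma cell genes, with Mcm3 at 21.3 and 36.5. Their Mcm3 ratios were 2.56 and 4.39. Those of the other subunits were 0.65 to 1.03 in rat 8 and 1.06 to 1.335 in rat 10. Over the 35 genes the median ratios of these 2 libraries were 0.96 and 1.01. The libraries with the most lymphocyte genes thus had the highest Mcm3 of their groups, and the part of these cells was not tested. Paqr8, beside Mcm3 and without overlap, was 30.7 CPM in male SAT rat 23, against 2.33 to 4.75 in 9 other male SAT libraries. The other neighbour, Mir133b, was 0 there, against 0 to 0.68 in the same 9. Whether the level of Paqr8 bears on that of Mcm3 was not tested.

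In male VAT rats 11 (sham) and 13 (PCB 52) Kif11 stood apart, at 77.6 and 84.4 CPM; rat 23 had 14.4 and the others 0.51 to 4.10. Ide, which overlaps Kif11 in the RefSeq annotation, was 87.7 and 79.2 CPM in the same libraries, against 21.6 to 44.1 in the 8 male VAT libraries other than those of rats 11, 13 and 23. As the use of strand in counting is not known here, reads of overlapping genes cannot be assigned with certainty. Tk1 was 25.6 and 18.5 CPM there. The 3 male tract genes summed to 142 and 35.8 CPM in rats 11 and 13, and to 307 in rat 23, against 0 to 0.42 elsewhere. The 7 mammary and surface epithelium genes summed to 493 and 426 CPM in rats 11 and 13. They summed to 76.2 in rat 23, against 12.8 to 63.8 in the other male VAT libraries. The part of these cells in the level of Kif11 was not tested. Tyms was 0 in rat 13, which lacks reads for most genes of chromosome 9 that its group expresses, where RefSeq places Tyms, and 14.7 to 20.3 in the other PCB 52 libraries.

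In female VAT rat 20 the median ratio was 2.08, from 0.94 for Kif20a to 8.43 for Ccnb2, with 27 genes above the other PCB 52 libraries. Endothelial genes summed to 284 CPM there, against 478 to 683 in the other female VAT libraries.

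**Figure D5:**
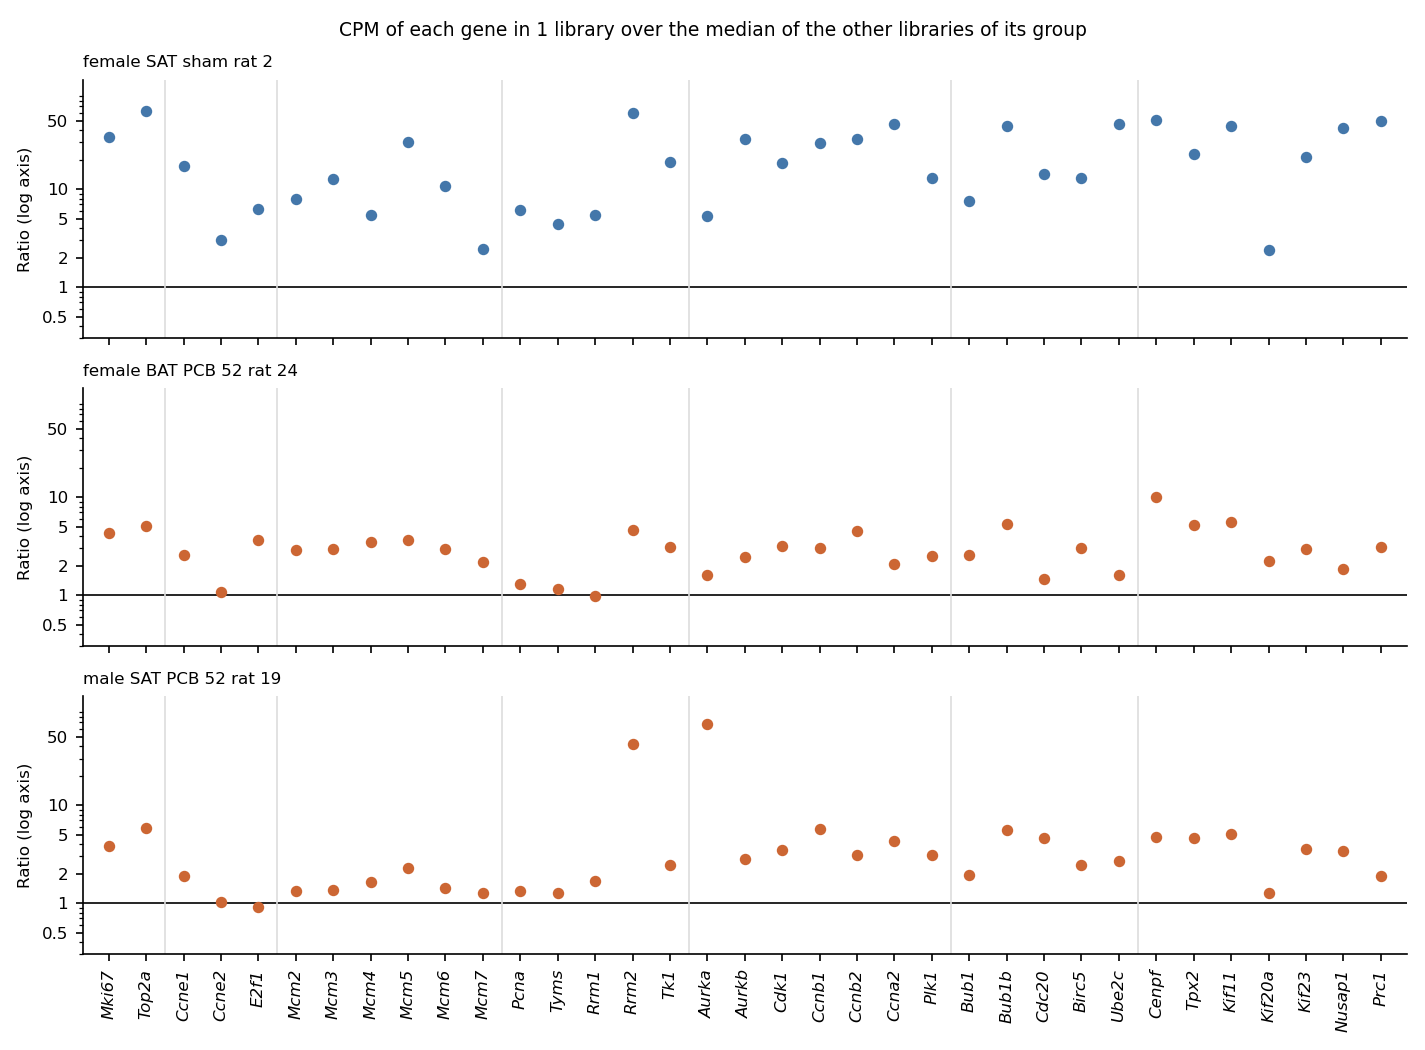
Ratio of each cell cycle gene in a library to its median over the other libraries of the same group (log axis), by role. The libraries are female SAT sham rat 2, female BAT PCB 52 rat 24 and male SAT PCB 52 rat 19. The whole list is raised in rat 2 (median 18.6) and most of it in rat 24 (2.95), while rat 19 is led by Aurka (67.7).

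The sexes were compared in sham rats. In BAT 0 of 23 genes differed (0.0373% of all genes higher and 0.028% lower in males; edgeR), with 0 at an unadjusted p under 0.05, 0 by DESeq2, and a median of 0.03 against 0.00 over all genes. The smallest p belonged to Tyms (0.23), Rrm2 (0.42) and Rrm1 (-0.15). In SAT 0 of 35 passed (0.344% higher and 0.748% lower over all genes), although all 35 values were lower in males. The median was -1.66, against -0.02. At an unadjusted p under 0.05 there were 10, and the share of all genes at that cut is not given here. DESeq2 called 4 lower (Birc5, Cdk1, Mcm7 and Pcna). Without female rat 2, 19 of 35 were higher in males, the median was 0.06 and Prc1 passed (2.08, edgeR adjusted p = 0.046); without rats 2 and 8, 31 were higher and the median was 1.17. Mcm7 kept its sign, at 20.3 to 42.9 CPM in males and 58.7 to 177 in females, with no overlap (-1.67 ± 0.36 with all libraries, edgeR adjusted p = 0.053; -0.89 ± 0.23 without rats 2 and 8).

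In VAT, E2f1 was higher in males, at 15.2 to 29.4 CPM against 6.80 to 16.8 in females (1.10 ± 0.22, edgeR adjusted p = 0.0077). It was the only gene of 33 to pass, 1 higher and 0 lower against 6.19% and 5.34% of all genes; the median was 0.17, against 0.02. Tyms missed the threshold (-0.38, edgeR adjusted p = 0.062) and was called lower by DESeq2. Kif11 was 2.13 with all libraries and -0.05 without male rat 11. The ranges of E2f1 overlap only between the lowest male and the highest female libraries.

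The test of whether PCB 52 acted differently in the sexes called 0 genes in each depot, of the cell cycle or otherwise (0%; edgeR), and DESeq2 called 0 cell cycle genes. At an unadjusted p under 0.05 there was 1 of 27 in BAT, 1 of 35 in SAT and 3 of 35 in VAT, without the share of all genes at that cut. The smallest p was that of E2f1 in VAT (-1.06 ± 0.32, edgeR adjusted p = 0.41), whose PCB 52 difference was 0.59 in females and -0.47 in males, followed by Ccne1 (-0.71) and Nusap1 (-1.16). In SAT, Aurka (3.37), Birc5 (2.73) and Rrm2 (3.29) led, and in BAT, Aurka (-0.86), Rrm2 (-1.18) and Tk1 (-0.81). Without male SAT PCB 52 rat 19 the SAT values were 0.17 for Aurka and 0.73 for Rrm2, and without female SAT sham rat 8 that of Birc5 was 1.15; without female BAT PCB 52 rat 24 the BAT values were -0.59 for Rrm2 and -0.42 for Tk1. The medians were -0.15 in BAT, 0.77 in SAT and -0.35 in VAT, against 0.01, 0.05 and -0.03 over all genes. In SAT the median was -0.63 without sham female rat 2 and 1.64 without PCB 52 female rat 22; in BAT it was 0.09 without PCB 52 female rat 24 and -0.32 without PCB 52 male rat 15, and in VAT -0.11 without PCB 52 female rat 20.

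A further 101 genes of the same pathway, of which 87 were counted, were tested in the same fits. In male BAT against SAT, 7 were higher and 35 lower of 77 tested (28% and 27.3% of all genes), and against VAT 9 were higher and 30 lower (26.5% and 23.3% of all genes). Of 31 mitotic genes outside the list, 21 were lower and 0 higher in BAT than in SAT, and of 22 licensing and fork genes 9 were lower and 1 higher; the difference between these lists was not tested. Of 8 pocket proteins and E2F partners, 3 were higher and 2 lower. The genes of smallest p were E2f6, a repressive E2F (1.54 against SAT, 1.45 against VAT), and Cdkn1a, which encodes the CDK inhibitor p21 (3.19 and 2.44), both higher in male BAT. In SAT against VAT of males, 5 were higher and 4 lower of 77 (12.4% and 10.6% of all genes), led by the cyclin Ccnd3 (-0.73) and the inhibitor Cdkn2c (-1.37).

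In females 5 pathway genes were higher and 49 lower of 73 in BAT against SAT (20.3% and 27.3% of all genes), led by Incenp, which carries Aurora B (-2.88), and Ccnd3 (1.54). Against VAT, 2 were higher and 7 lower in BAT (14.3% and 11.2% of all genes), led by E2f6 (1.22) and the kinase Cdc7 (-2.07). In SAT against VAT 34 were higher and 5 lower (23.2% and 16.5% of all genes), led by Cdkn2c (-2.25) and Incenp (2.61). Without SAT sham rats 2 and 8, 9 were higher and 20 lower of 74 in BAT against SAT. In SAT against VAT 9 were then higher and 8 lower, so these counts too rested on those libraries. Shares over all genes are not given for the fits without them. E2f6 was thus higher in BAT than in VAT in both sexes. Between the sexes, 3 were higher and 2 lower of 72 in male VAT (6.19% and 5.34% of all genes), led by Tfdp2 (0.58) and Ccnd2 (-1.12), and 0 in BAT and SAT. None passed for PCB 52 in any depot or for the interaction.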

How the data were processed

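RNA was measured in 70 adipose libraries of 24 rats by sequencing. Per the labels' protocols, tissue was lysed in TRIzol, RNA was cleaned on RNeasy columns, RNA with an integrity number under the stated limit was excluded, and either poly(A) capture or rRNA removal was used. The submitters' processing notes name FastQC, HISAT2 and the build rn6; the sources used here do not give the counting program, its annotation or its use of strand, so overlapping and antisense genes have uncertain counts. As deposited, the values are whole counts for each gene in 6 tables, by sex and depot. The deposited female VAT table was handled as estimated counts, since 5 summary lines under its genes, some not whole, name no gene; they were dropped, and no gene line needed rounding. Of the gene numbers, 15230 matched a RefSeq table of GRCr8 and 89 did not; as that build differs from rn6, no coordinates are given.

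Tests used edgeR 4.0.16 under R 4.3.3 (TMM normalization, default expression filter, robust quasi-likelihood F test, Benjamini-Hochberg adjustment over all genes tested, threshold 0.05). The contrasts were PCB 52 against sham in every sex and depot, depots within sham rats of a sex in 1 fit of the 3 depots, and, in each depot, the sexes of sham rats and the interaction of sex and exposure. CPM in the text are scaled to the plain library total. The fits were tested on simulated counts. Alternatives were DESeq2 1.42.0, RLE size factors, no filter on low counts, 1 fit of all 12 groups, leaving out each library in turn, the rat as a block, and leaving out sets of libraries chosen after seeing the data (male SAT rats 11, 19 and 23; female SAT sham rats 2 and 8).

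The members, their roles, the pathway genes and the marker lists were chosen with earlier results of these data known. All members are described by role; in each comparison those past the threshold are named, up to 8 in each direction by smallest p, or the 3 of smallest p where fewer pass, with the 2 pathway genes of smallest p. Equal rat numbers were read as the same rat, though the labels do not say so in words. Deviations from sham group means over all genes had a median correlation of 0.0977 (-0.209 to 0.401) in 34 pairs with equal numbers, 17 of them over 0.1, and -0.0209 in 170 pairs with different numbers. No libraries were merged: among 170 pairs from the same group 0 had equal values, and chi-square divided by the number of genes was at least 7.33.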

Additional observations from a re-analysis of the deposited data

Results flagged for a closer look

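Values of 8 genes and of the summed level of the 35 were examined in each of the 12 groups, 108 sets of values in all, for a library whose gap to the nearest other is large for the range of its group; chance gives about 1 in 20. Such a gap was found in 21 sets. The sets share libraries in which these genes often rise together, so 21 cannot be set against that rate. The summed level stood apart in female BAT PCB 52 (407.3 CPM, rat 24), female SAT sham (3379, rat 2) and male VAT sham (496.7, rat 11).

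In female SAT sham, rat 2 stood apart for Mki67 (383.8 CPM), Top2a (253), Ccnb1 (59.71), Mcm5 (95.44), Rrm2 (107.6) and Aurka (31.58). In female SAT PCB 52, rat 22 did for Cdk1 (57.22), Ccnb1 (51.75) and Rrm2 (74.26). In female BAT PCB 52, rat 24 did for Mki67 (32.14), Top2a (14.6) and Rrm2 (7.158). In male SAT PCB 52, rat 19 did for Aurka (474) and Rrm2 (173.5), and Cdk1 had a high value of 17.71. In VAT, high values were found for Cdk1 (9.581) and Pcna (63.15) in female PCB 52 and for Mki67 (23.23) in male PCB 52 rat 17.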

How the results depend on the processing

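RLE size factors and leaving out the filter on low counts changed no direction and no count of called genes by over 1.5 times. With all 12 groups in 1 fit, PCB 52 comparisons gained 1 lower gene in female SAT (Pcna) and 1 higher in male SAT (Aurka). With the rat as a block, 12 genes were lower in female BAT than SAT, 5 higher in female SAT than VAT, and 1 (E2f1) lower in male SAT than VAT; the block changed no other count of depot calls by over 1.5 times. DESeq2 called 1 lower in male SAT against VAT, 4 lower in males in SAT and 1 lower in males in VAT.

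Leaving out 1 library at a time, female BAT against SAT had 0 to 2 higher and 12 to 31 lower genes and a median of -2.77 to -1.17; BAT against VAT 0 to 1 higher and 1 to 2 lower; SAT against VAT 6 to 27 higher, 0 to 2 lower and a median of 0.51 to 2.26. Male SAT against VAT had 0 to 1 lower. Males against females had 0 to 1 higher, 0 to 1 lower and a median of -1.88 to 0.065 in SAT, and 0 to 1 lower in VAT. The interaction in SAT had a median of -0.63 to 1.64. Log2 fold changes ran from -0.087 to 3.45 for Aurka (PCB 52, male SAT) and from -0.045 to 2.36 for Kif11 (sexes, VAT).

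Without female SAT sham rats 2 and 8, PCB 52 in female SAT had a median of 2.27, with Birc5 at 1.85, Mcm7 at 0.23 and Pcna at 0.83. BAT against SAT then had 5 higher, 6 lower and a median of 0.023; SAT against VAT 3 higher, 4 lower and a median of -0.54, with Cdk1 at -0.11, Nusap1 at -0.47, Birc5 at -0.16 and Mki67 at -0.46. Males against females in SAT had 1 higher, a median of 1.17 and Pcna at 0.054, and the interaction in SAT a median of -1.46, with Birc5 at -1.10 and Rrm2 at -0.84. This removes high sham libraries and keeps high PCB 52 ones. Shares over all genes are not given for these fits. Without male SAT rats 11, 19 and 23, Aurka was -0.054 and Rrm2 -0.25. The cause of these changes was not tested. Genes near the floor of 3 counts, such as Ccnb2 and Ube2c, limit what depth can show.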
